A study of Mus musculus with 13 samples.

Results

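Adrenomedullin and the endothelins are vasoactive peptides, and the genes described here encode these peptides, the subunits of their receptors and 1 enzyme of their maturation. They were taken as every probe set of the array that carried the symbol of 1 of 10 listed genes, Adm, Calcrl, Ramp1, Ramp2, Ramp3, Edn1, Edn3, Ednra, Ednrb and Ece1. This gave 21 probe sets of 9 genes, out of 45037 probe sets that were not array controls. Ednra, the receptor that prefers endothelin 1, carried its symbol on 0 probe sets in the annotation used and was not analysed here. Each array held the RNA of the whole brain of 1 mouse embryo, taken at embryonic day 18.5. The groups were 7 embryos with a knock-out of Meg3, an imprinted long non-coding RNA made from the maternal chromosome, and 6 wild-type embryos. All 13 came from 5 litters. Litter 148 held 1 knock-out embryo and 0 wild-type embryos, litter 219 held 1 and 2, litter 238 held 2 and 1, litter 250 held 2 and 2, and litter 262 held 1 and 1. The labels name no agent or other allele in either group, and the sources used here do not give the region of Meg3 that was knocked out, the mouse strain or the sex of the embryos. The series is titled for angiogenic genes.

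Adrenomedullin is a small peptide that widens blood vessels and acts on endothelial cells. Its receptor is a pair of proteins, the G protein-coupled receptor encoded by Calcrl and 1 of the receptor activity-modifying proteins encoded by Ramp1, Ramp2 and Ramp3, and the partner decides the ligand: RAMP1 makes a receptor for calcitonin gene-related peptide, RAMP2 and RAMP3 make receptors for adrenomedullin. Endothelins are made as inactive precursors that endothelin-converting enzymes cut, endothelin 1 mostly by endothelial cells, where it narrows vessels through the Ednra receptor on mural cells. Endothelin 3 and the Ednrb receptor guide neural crest cells, and in the brain Ednrb is also carried by astroglia and by the endothelium. Adm is a well-known target of the hypoxia-inducible factors, whose core DNA motif is GCGTG or ACGTG.

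The promoters of the genes for the peptides adrenomedullin and endothelin 1 are shown because Adm had the smallest p of the genes described and Edn1 encodes the peptide of opposite action on vessels. Both are the 250 bases before the RefSeq start on GRCm38.p6, Adm at chr7:110627407-110627656 and Edn1 at chr13:42301226-42301475, each on the plus strand. Capitals mark the motif GCGTG or ACGTG on either strand.
Adm: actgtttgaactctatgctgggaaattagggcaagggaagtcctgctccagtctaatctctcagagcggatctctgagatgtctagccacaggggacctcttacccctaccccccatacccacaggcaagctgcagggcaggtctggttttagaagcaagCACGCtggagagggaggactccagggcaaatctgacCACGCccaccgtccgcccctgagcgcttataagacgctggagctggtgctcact
Edn1: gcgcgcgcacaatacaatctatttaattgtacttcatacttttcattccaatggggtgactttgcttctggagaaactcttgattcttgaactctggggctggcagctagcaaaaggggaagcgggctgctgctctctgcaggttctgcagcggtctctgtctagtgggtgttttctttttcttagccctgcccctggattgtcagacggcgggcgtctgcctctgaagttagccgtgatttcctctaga
The Adm window held 2 matches, both GCGTG read on the minus strand as CACGC, beginning 90 and 54 bases before the start, and the Edn1 window held 0. Among the listed genes 9 had a window in the RefSeq table, with 12 windows in all, and 6 of these windows, from 4 genes, had a match. At least 1 of these motifs stood in 38.6% of all 32851 windows of this length, GCGTG in 28.2% and ACGTG in 16.6%. A match describes letters only and does not show binding. Likewise, a window of 250 bases without a match does not show that a gene has no such site.

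Meg3 itself averaged 378 ± 106 (SD, n = 7) in the knock-out, against 4955 ± 1374 (SD, n = 6) in the wild-type group (log2 change -3.64 ± 0.20 SE, limma adjusted p = 1.25e-07). Signals are linear array intensities on the deposited scale. Changes are differences of mean log2(signal + 16), knock-out minus wild-type, which understate the change of weak genes, and they were tested with limma over all 12920 genes, each by its probe set of highest mean. The Actb controls gave a ratio of 3' over 5' signal, a measure of RNA quality, that stood apart in knock-out 1 (1.81) and wild-type 2 (2.92), against 1.32 to 1.495 in the other 11 arrays. Whole brain mixes many cell types, so fewer cells of a type and less RNA per cell cannot be told apart. Defining markers of the carrier cells were measured: 17 of 18 listed endothelial, 11 of 13 mural and 15 of 15 astroglial markers lay above the filter on dim probe sets.

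None of the adrenomedullin and endothelin genes passed the adjusted threshold of 0.05 in knock-out brains. Of 9 genes with a probe set, 8 lay above the filter, a mean signal of 56.9, and 0 of these 8 were called, where 0.0232% of all 12920 genes were (3 genes). Adm was the only 1 of the 8 with an unadjusted p under 0.05, which 1.97% of all genes had in either direction and 1.72% in the higher direction. Knock-out means exceeded wild-type means for 6 of the 8 genes and fell short of them for 2, where 65.5% of all genes had the higher mean in the knock-out, and the median log2 change was 0.03 against 0.04 over all genes. That split depended on the scaling of the arrays. It was 2 higher and 6 lower after quantile normalization, 1 and 7 after centring each array on its median, and 4 and 4 with the array factor removed, that is with all arrays scaled to 1 trimmed mean, while the median of all genes moved to -0.03, -0.15 and -0.01. With each of the 21 probe sets tested among all 45037, 0 were called, where 0.0555% of all probe sets were. An unadjusted p under 0.05 was found for 2 of the 21, against 5.23% of all probe sets. The groups overlapped for all 8 genes and all 21 probe sets, where 0.0774% of genes and 0.164% of probe sets had groups that did not. Exact permutation tests over the 1716 splits of the 13 arrays are given unadjusted, since after adjustment they called 0 of all 12920 genes, Meg3 included.

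**Figure D1:**
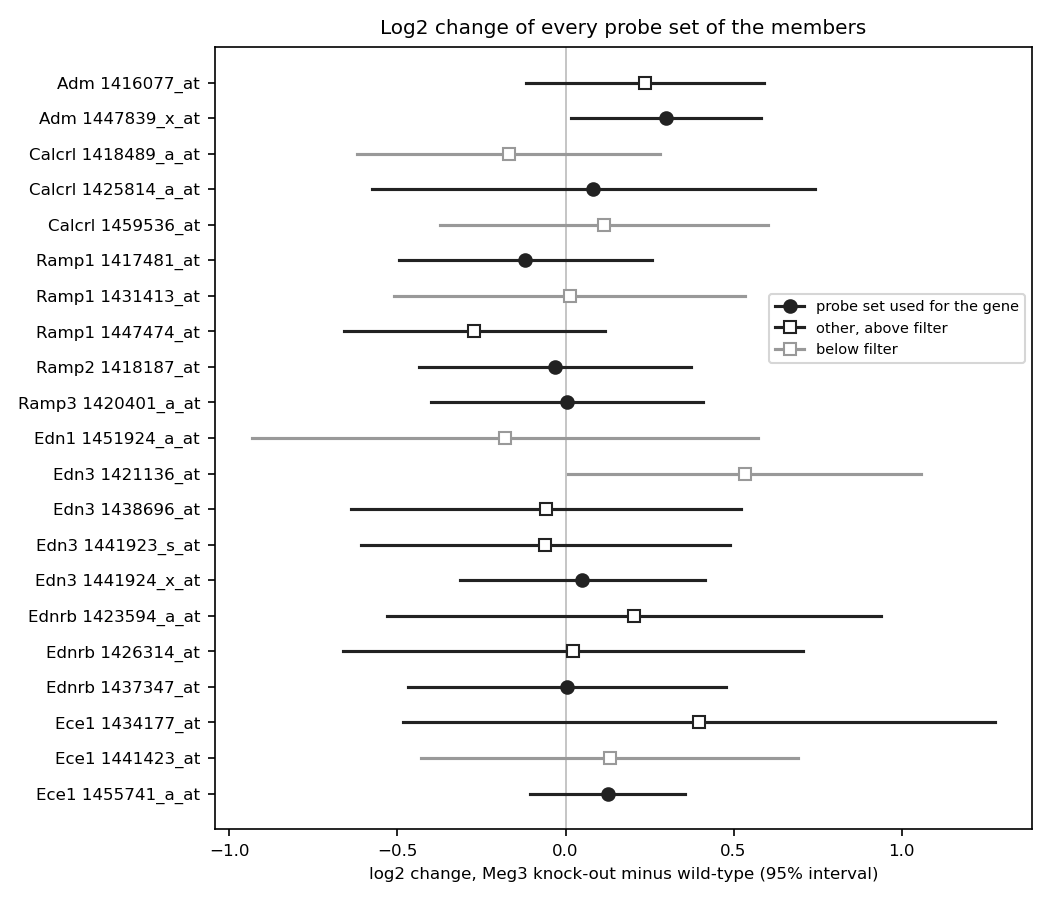
Change of each of the 21 probe sets in Meg3 knock-out relative to wild-type brains, on the log2(signal + 16) scale, as the estimate and 95% interval of the limma fit of all 45037 probe sets. Filled circles are the probe sets used for the genes, open squares the others, and grey ones lay below the filter. The intervals of all but 2 probe sets, Adm 1447839_x_at and Edn3 1421136_at, include 0.

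Adm, which encodes adrenomedullin, had the smallest p of the 8 genes. On probe set 1447839_x_at its signal ran from 128 to 167 with a median of 148 in the 7 knock-out brains, and from 82.9 to 147 with a median of 119.6 in the 6 wild-type brains. All 7 knock-out values lay above the wild-type median and 4 of them above every wild-type value, but the groups overlapped, because wild-type 2 (147) and wild-type 4 (137) lay among the knock-out values. The knock-out mean was 147 ± 15.6 (SD, n = 7), against a wild-type mean of 118 ± 23.6 (SD, n = 6), a 1.23-fold difference on the log2(signal + 16) scale (95% interval 1.03 to 1.47). The log2 change was 0.30 ± 0.12 SE. The unadjusted p was 0.0273 in limma and 0.0221 in the exact permutation test, the limma adjusted p was 1.00, and Adm ranked 127 of 12920 genes by p. Adm moved less between embryos of 1 genotype than most genes: its within-group SD of log2 values exceeded that of 25.9% of all genes.

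On the deposited scale the same Adm probe set was higher in knock-out brains within all 4 litters with both genotypes, and under each of the 3 other scalings within 3 of them. Litters 219, 238, 250 and 262 gave log2 differences of 0.11, 0.72, 0.20 and 0.28 on the deposited scale, and litter 219 gave -0.28, -0.25 and -0.08 after quantile normalization, median centring and removal of the array factor. The difference in litter 238 rests on 1 wild-type embryo, wild-type 3, which had the lowest Adm signal of all 13 arrays (82.9). Without that embryo the log2 change was 0.21 and its unadjusted limma p rose above 0.05. The unadjusted p also lay above 0.05 after quantile normalization (change 0.11), median centring (0.10) and removal of the array factor (0.25). The change of Adm stood above that of 95.8% of genes on the deposited scale and of 87.2% after quantile normalization. Median centring moves every gene by the same amount, so that share cannot change under it.

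The second Adm probe set, 1416077_at, ran from 73.4 to 156 with a median of 117 in knock-out and from 70.7 to 126 with a median of 99.9 in wild-type brains. Its groups overlapped widely, with 3 knock-out values above every wild-type value, and its log2 change was 0.24 (95% interval -0.12 to 0.59). Here 2 of 4 litters had a higher mean in knock-out brains, with 0.27 in litter 219 and 0.84 in litter 250, against -0.20 in litter 238 and -0.35 in litter 262. The probe sets of Adm did not follow each other from embryo to embryo: within groups their log2 values had a Pearson r of -0.13 over the 13 arrays. This and every other correlation below is a description of 13 arrays that share litters and array scaling.

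**Figure D2:**
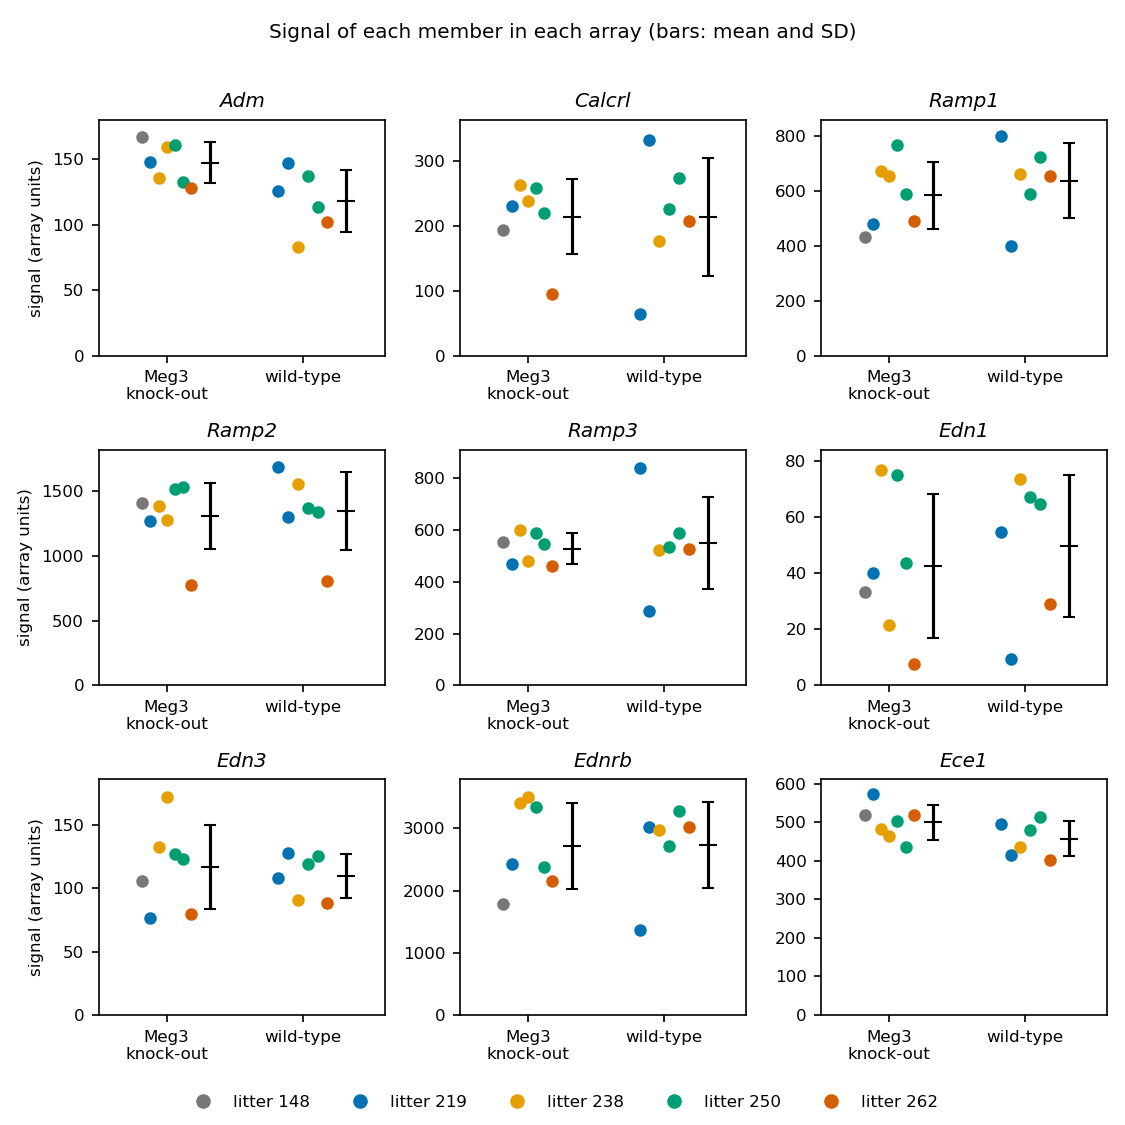
Signal (linear array units) of each gene in each of the 13 brains, Meg3 knock-out at the left and wild-type at the right of each panel, coloured by litter, for the probe set of highest mean. Bars give the mean and SD of each group. Every gene has overlapping groups, the 4 highest Adm values are knock-out brains, and both embryos of litter 262 lie far below the others for Ramp2.

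Calcrl, the receptor shared by adrenomedullin and calcitonin gene-related peptide, had close means in both groups. On 1425814_a_at its signal ran from 94.4 to 263 with a median of 230.3 in knock-out and from 63.5 to 333 with a median of 217 in wild-type brains. Both groups had a single low embryo, knock-out 7 at 94.4 and wild-type 1 at 63.5, and the knock-out range lay inside the wild-type range. Knock-out brains averaged 214 ± 57.7 (SD, n = 7), against 214 ± 91.7 (SD, n = 6) in wild-type brains, a log2 change of 0.08 (limma adjusted p = 1.00, 95% interval -0.55 to 0.72). That interval covers folds of 0.682 to 1.64, the widest of the 8 genes, since its within-group SD exceeded that of 96.0% of all genes. The litters disagreed, with log2 differences of 0.56 in litter 219 and 0.47 in litter 238 against -0.06 in litter 250 and -1.02 in litter 262. Calcrl had 2 further probe sets below the filter, 1418489_a_at with a log2 change of -0.17 and 1459536_at with 0.11, both with intervals that include 0.

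Ramp1, whose protein makes Calcrl a receptor for calcitonin gene-related peptide, ran from 430.1 to 765 with a median of 589 in knock-out and from 399.6 to 797 with a median of 655 in wild-type brains. The knock-out range lay inside the wild-type range. Its knock-out mean was 582 ± 122 (SD, n = 7), against a wild-type mean of 636 ± 136 (SD, n = 6) (log2 change -0.12, 95% interval -0.47 to 0.23). The dimmer probe set 1447474_at ran from 30.3 to 73.6 in knock-out and from 42.4 to 90.7 in wild-type brains. All 7 knock-out values of that probe set lay below the wild-type median of 78.9, and the knock-out mean was lower within each of the 4 litters, by log2 differences of -0.63, -0.41, -0.14 and -0.56 in litters 219, 238, 250 and 262. Its log2 change was -0.27 (95% interval -0.66 to 0.12, limma adjusted p over all probe sets 0.987). The groups overlapped: wild-type 2, at 42.4, lay below 6 of the knock-out values and wild-type 1, at 71.5, below 2. The change was larger under some settings, none of which gave an adjusted call: -0.44 after quantile normalization, -0.47 after median centring, -0.39 with litter as a block and -0.39 without wild-type 2, each with an unadjusted limma p under 0.05. It was -0.31 with the array factor removed and -0.16 without knock-out 2, with that p above 0.05. The last Ramp1 probe set, 1431413_at, was below the filter and had a log2 change of 0.01.

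Ramp2, the partner that gives Calcrl its adrenomedullin preference in blood vessels, was low in both embryos of litter 262, whichever their genotype. It ran from 777 to 1533 with a median of 1388 in knock-out and from 810.3 to 1691 with a median of 1357 in wild-type brains. The lowest value of each group belonged to litter 262, and the other 11 arrays lay between 1271 and 1691. Knock-out brains averaged 1311 ± 257 (SD, n = 7), against 1345 ± 301 (SD, n = 6) in wild-type brains, a log2 change of -0.03 (95% interval -0.41 to 0.35). A further pair of probe sets, 1421051_s_at and 1428621_a_at, carries Ramp2 together with Vps25 and was not counted for Ramp2. Their log2 changes were 0.26 (95% interval -0.11 to 0.63) and 0.04 (95% interval -0.20 to 0.28). In litter 262 the first gave 1203 in knock-out 7 and 1108 in wild-type 6 and the second 1483 and 1419, each inside the range of the other 11 arrays.

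The summed signal of vessel and connective tissue markers was also low in both embryos of litter 262. The 17 tested endothelial markers summed to 5572 in knock-out 7 and 5608 in wild-type 6, against 6155 to 8770 in the other 11 arrays. The 11 tested mural markers summed to 5270 in knock-out 7 and 5239 in wild-type 6, against 5622 to 7869 elsewhere. The 12 meningeal and fibroblast markers summed to 10741 in knock-out 7 and 11784 in wild-type 6, against 16622 to 32320 elsewhere. Sums of other cell types stood apart in the same embryos. The 4 tested of 9 red cell markers gave 2050.5 in knock-out 7 and 2007 in wild-type 6, against 2258 to 3837 elsewhere. The 5 tested of 10 neural crest and melanocyte markers gave 1483 and 1463, against 1641 to 2058. A sum weighs bright markers most, so log2 deviations of each marker from its mean over all arrays were also averaged. Red cell markers then gave -0.25 in knock-out 7, inside the -0.42 to 0.78 of the other 11 arrays, and -0.78 in wild-type 6. Neural crest and melanocyte markers gave -0.22 and -0.24, inside -0.32 to 0.30. Summed neuronal markers were the highest of all arrays, at 100442 and 97593, against 78434 to 93506 elsewhere. Their averaged log2 deviations, -0.0045 in knock-out 7 and 0.045 in wild-type 6, lay inside the -0.22 to 0.17 of the other 11 arrays. Endothelial (-0.39 and -0.35), mural (-0.49 and -0.48) and meningeal markers (-0.89 and -0.72) were the lowest of all arrays by this measure too. Microglial markers were likewise lowest in both embryos. They summed to 2697 in knock-out 7 and 2684 in wild-type 6, against 3306 to 4952 elsewhere. Their averaged log2 deviations were -0.42 and -0.37, against -0.33 to 0.35 elsewhere. The part these cell types had in the low Ramp2 signal was not tested. Between genotypes the sums overlapped: endothelial markers ran from 5572 to 8668 in knock-out and from 5608 to 8770 in wild-type brains, with 0 listed markers at a signal of 0 in any array.

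**Figure D3:**
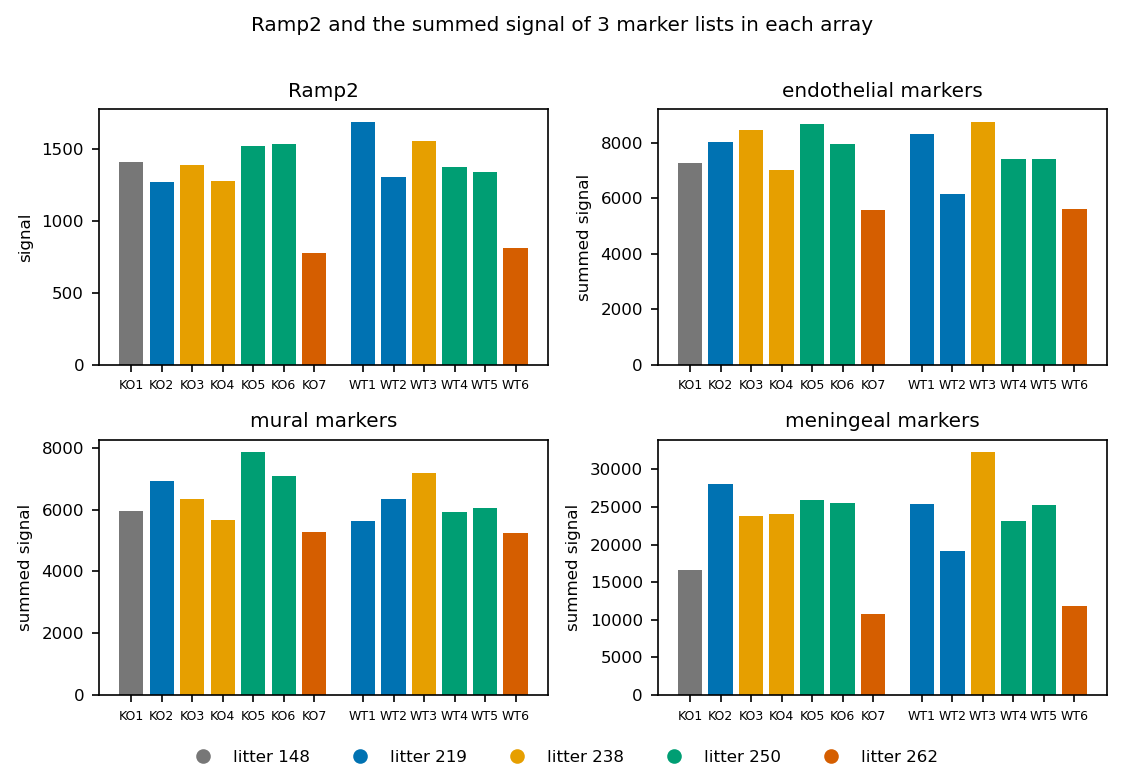
Ramp2 signal and the summed signal of the tested endothelial, mural and meningeal markers (linear array units) in each array, knock-out brains at the left and wild-type brains at the right, coloured by litter. Knock-out 7 and wild-type 6, both of litter 262, have the lowest bar of their group in all 4 panels.

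Ramp3, the second adrenomedullin-preferring partner, had a narrower knock-out than wild-type range. It ran from 461 to 602 with a median of 546 in knock-out and from 286 to 841 with a median of 529 in wild-type brains. All knock-out values lay inside the wild-type range, whose extremes were the littermates wild-type 1 (841) and wild-type 2 (286) of litter 219. Knock-out brains averaged 529 ± 58.2 (SD, n = 7), against 549.7 ± 178 (SD, n = 6) in wild-type brains, a log2 change of 0.0034 (95% interval -0.38 to 0.39). Wild-type 2 is the array with the highest Actb ratio, and without it the log2 change was -0.17. Without wild-type 1 it was 0.14.

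Edn1, the gene for endothelin 1, lay below the filter and was not among the 8 genes tested. Its probe set 1451924_a_at ran from 7.52 to 76.6 with a median of 39.9 in knock-out and from 9.39 to 73.7 with a median of 59.6 in wild-type brains. The groups overlapped over nearly their whole range, with 2 knock-out values above and 1 below every wild-type value. Among all probe sets its log2 change was -0.18 (95% interval -0.93 to 0.57). In litter 262 knock-out 7 had the lowest value of all arrays (7.52), and wild-type 6, at 29.0, lay inside the 9.39 to 76.6 of the other 11 arrays.

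Edn3, the gene for endothelin 3, had 4 probe sets, whose changes differed in sign. The brightest, 1441924_x_at, ran from 76.3 to 172 with a median of 123 in knock-out and from 88.2 to 128 with a median of 113 in wild-type brains. Knock-out values lay on both sides of the wild-type range, 2 above and 2 below it. Knock-out brains averaged 117 ± 33.2 (SD, n = 7), against 109.7 ± 17.3 (SD, n = 6) in wild-type brains, a log2 change of 0.05 (95% interval -0.29 to 0.39). The probe sets 1438696_at and 1441923_s_at each had a log2 change of -0.06.

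The dimmest Edn3 probe set, 1421136_at, lay below the filter and had the largest change of the 21. It ran from 26.5 to 79.2 with a median of 47.6 in knock-out and from 6.26 to 42.6 with a median of 36.3 in wild-type brains. The groups overlapped, with 4 knock-out values above every wild-type value and 2 wild-type values, wild-type 2 (6.26) and wild-type 6 (20.5), below every knock-out value. The log2 change was 0.53 ± 0.25 SE with an unadjusted limma p of 0.047 (limma adjusted p over all probe sets 0.947). Its largest difference within a litter, 1.53 in litter 219, includes wild-type 2, and the log2 change was 0.34 without that embryo and 0.23 without litter 219. Correlations between the Edn3 probe sets within groups ran from -0.39 to 0.25 over the 13 arrays, so none of the 4 followed another closely.

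Ednrb, the receptor for all endothelins, had close means in both groups on its brightest probe set. On 1437347_at it ran from 1789 to 3503 with a median of 2431 in knock-out and from 1374 to 3275 with a median of 3002 in wild-type brains. The groups overlapped, although 3 knock-out brains, of litters 238 and 250, exceeded every wild-type brain, and wild-type 1 lay below every knock-out brain. Knock-out brains averaged 2719 ± 690.4 (SD, n = 7), against 2733 ± 689 (SD, n = 6) in wild-type brains, a log2 change of 0.0039 (95% interval -0.45 to 0.45), which covers folds of 0.734 to 1.37.

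The other Ednrb probe sets had log2 changes of 0.02 on 1426314_at (95% interval -0.66 to 0.71) and 0.20 on 1423594_a_at (95% interval -0.53 to 0.94). All 3 followed each other within groups, with r of 0.88, 0.78 and 0.55 over the 13 arrays. They parted in litter 262. There 1423594_a_at gave 485 in knock-out 7 and 676 in wild-type 6, above the 112 to 448 of the other 11 arrays. On 1437347_at these embryos had 2162 and 3030, inside the range of the others. Knock-out 1, the only embryo of litter 148, had the lowest signal of all arrays on 1426314_at (263) and on 1423594_a_at (112).

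**Figure D4:**
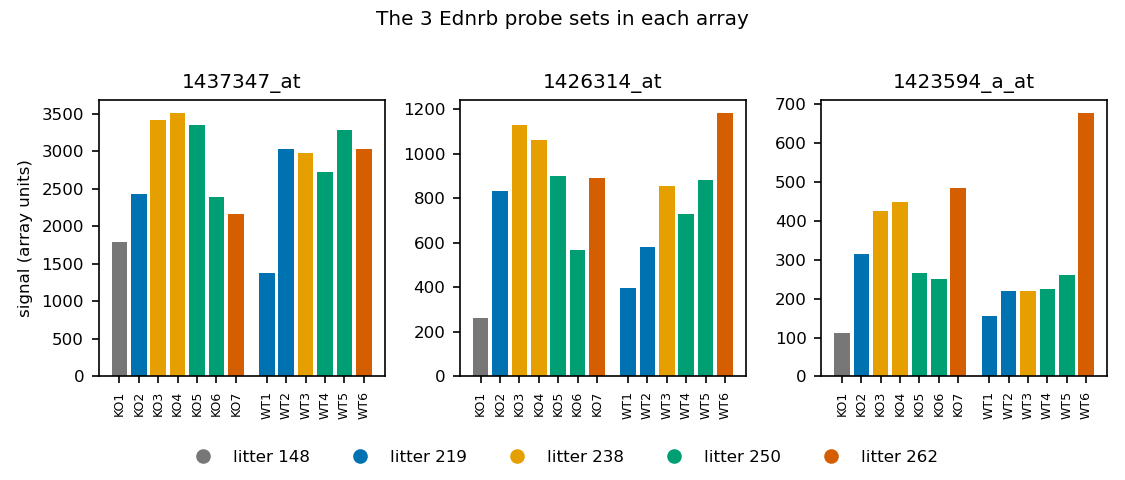
Signal (linear array units) of the 3 Ednrb probe sets in each array, knock-out brains at the left and wild-type brains at the right, coloured by litter. Litter 262 is highest on 1423594_a_at (485 and 676) but not on 1437347_at, and knock-out 1 is lowest on 1426314_at and 1423594_a_at.

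Ece1, the enzyme that cuts the endothelin precursors, was the steadiest of the 8 genes. On 1455741_a_at it ran from 435 to 573 with a median of 504 in knock-out and from 402 to 513 with a median of 457 in wild-type brains. The groups overlapped, with 3 knock-out values above every wild-type value, 2 wild-type values below every knock-out value and 6 of 7 knock-out values above the wild-type median. Knock-out brains averaged 499 ± 44.5 (SD, n = 7), against 457 ± 45.6 (SD, n = 6) in wild-type brains. The log2 change was 0.13 ± 0.10 SE (95% interval -0.08 to 0.33, limma adjusted p = 1.00), and the exact permutation p was 0.119. Within-group SD exceeded that of only 4.91% of all genes, so the interval stops at a 1.26-fold higher level. Its litter differences were 0.33, 0.12, -0.08 and 0.36 in litters 219, 238, 250 and 262.

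On the Ece1 probe set 1434177_at the difference rested on 1 array. Its signal ran from 137 to 209 in knock-out and from 9.85 to 232 in wild-type brains, but 9.85 belonged to wild-type 2 alone and the other 5 wild-type brains lay between 150.4 and 232. The log2 change of 0.40 (95% interval -0.48 to 1.28) became -0.09 without wild-type 2. The last probe set, 1441423_at, was below the filter, with a log2 change of 0.13.

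**Figure D5:**
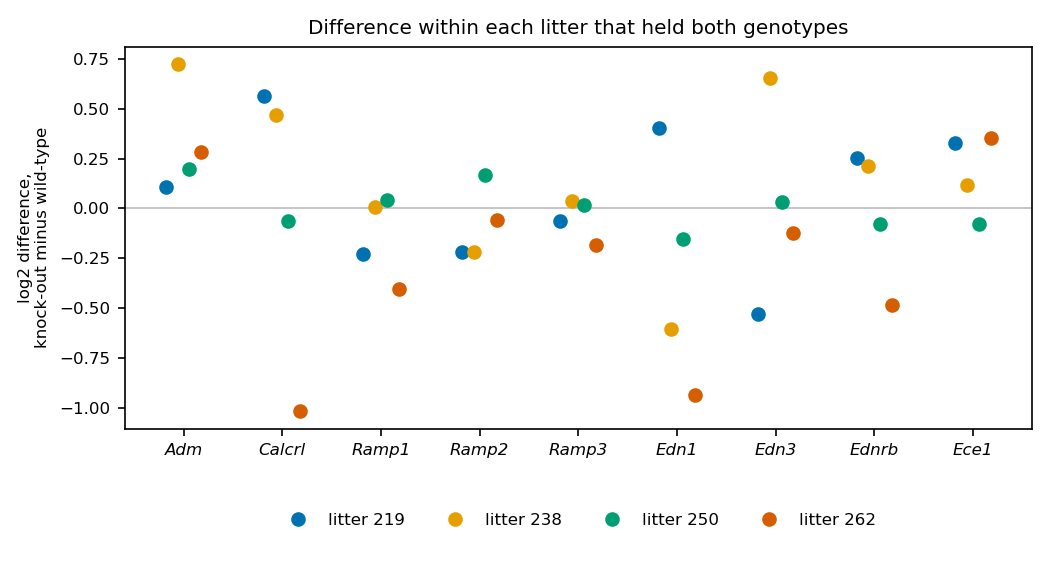
Difference of mean log2(signal + 16) between Meg3 knock-out and wild-type littermates for each gene in the 4 litters that held both genotypes, as dots coloured by litter. Adm is the only gene with all 4 dots above 0 on the deposited scale, with its litter 219 dot below 0 under the other scalings, and the differences of Calcrl run from -1.02 to 0.56. Edn1 lay below the filter.

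Some pairs of the genes varied together from embryo to embryo. After each group mean was subtracted, the highest Pearson r over the 13 arrays were 0.79 for Calcrl and Ednrb and 0.77 for Ramp1 and Ramp3. Wild-type 1 had the lowest signal of all arrays for both Calcrl (63.5) and Ednrb (1374). For Ramp1 and Ramp3 alike, wild-type 1 had the highest signal (797 and 841) and wild-type 2 the lowest (399.6 and 286). How far these r rest on those arrays was not tested. Calcrl and Ramp3, which encode parts of the same receptor, had -0.53, the lowest of any pair. Adm stayed between -0.30 and 0.46 with the other 7.

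By the same measure the genes most like each member over the 13 arrays were searched among all 12920. Closest to Adm were Myoz1 (r = 0.886), Tafa2 (0.880) and Nkain2 (0.865), and to Calcrl they were Lifr (0.969), Nup54 (0.944) and Nup153 (0.941). Closest to Ramp1 were B4gat1 (0.964), Slc1a6 (0.959) and Gsg1l (0.947), and to Ramp2 they were Shisa5 (0.980), Atox1 (0.966) and Col4a1 (0.962). How far the values for Ramp2 rest on its low signal in both embryos of litter 262 was not tested. Ramp3 came closest to Vwa1 (0.950), Get4 (0.949) and Stoml1 (0.948). Edn3 came closest to Tsc22d3 (0.894), Oprl1 (0.854) and Rnf152 (0.841), and Ednrb to Fuca2 (0.974), Wdr66 (0.963) and Asah1 (0.958). Ece1 came closest to Phf7 (0.861), Zfyve1 (0.844) and Mcm2 (0.820). With so many genes searched over so few arrays, values of this size are a ranking only.

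Genes that act beside and behind these receptors did not pass the adjusted test either. Of 38 listed genes of related peptide systems 23 were tested, and knock-out means were above wild-type means for 15 and below them for 8. With limma 0 were called, 1 had an unadjusted p under 0.05 and the median log2 change was 0.03. For this list and the next, the values over all genes were 65.5% with the higher mean in the knock-out and 0.0232% called. An unadjusted p under 0.05 was found for 1.97% of all genes, and their median log2 change was 0.04. The smallest p belonged to Adcyap1, the gene of the neuropeptide PACAP, which averaged 342 ± 63.9 (SD, n = 7) in knock-out brains, against 271 ± 26.3 (SD, n = 6) in wild-type (log2 change 0.30 ± 0.13 SE). It was followed by the scavenger receptor Ackr3, which also binds adrenomedullin (-0.23 ± 0.17), the apelin receptor Aplnr (-0.33 ± 0.29) and the angiotensin-converting enzyme Ace (0.18 ± 0.18). Of 36 listed genes of downstream signalling, the G proteins, cyclases and kinases through which such receptors act, 33 were tested. Of the tested, 23 had means above and 10 below the wild-type means, with limma 0 were called and 0 had an unadjusted p under 0.05, and the median was 0.08. The smallest p belonged to the adenylyl cyclase gene Adcy3, with a log2 change of 0.23 ± 0.11, and then to the receptor kinase gene Grk3 (0.19 ± 0.12), the protein kinase A gene Prkacb (0.14 ± 0.09) and the G protein gene Gnaq (0.14 ± 0.11). After median centring, which moves the median of all genes to -0.15, Ace (-0.02), Grk3 (-0.01), Prkacb (-0.06) and Gnaq (-0.06) lay below 0.

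The hypoxia list, of the hypoxia-inducible factors and other genes known to be regulated as Adm is, held 24 tested genes of 27 listed. Knock-out means were above wild-type means for 19 of them and below for 5, limma called 0, 4 had an unadjusted p under 0.05 and the median log2 change was 0.09. The changes of the 24 genes ran from -0.50 to 0.42. Over all genes 65.5% had the higher mean in the knock-out and 1.97% an unadjusted p under 0.05. The 4 were Vegfa, the gene of the main vessel growth factor (0.42 ± 0.12), the glycolytic genes Ldha (0.20 ± 0.09) and Pfkfb3 (0.32 ± 0.15), and Ankrd37 (0.24 ± 0.11). After median centring none of these 4 kept an unadjusted p under 0.05, with changes of 0.22 for Vegfa, 0.0077 for Ldha, 0.13 for Pfkfb3 and 0.046 for Ankrd37. After quantile normalization Vegfa (0.34) and Ldha (0.20) kept it, and with the array factor removed Vegfa alone (0.36). Of the 17 tested endothelial markers 10 lay above and 7 below the wild-type means, limma called 0, 0 had an unadjusted p under 0.05 and the median was 0.01. Pecam1 (0.24), Vwf (0.38) and Kdr (0.34) lay above 0 and Cdh5 (-0.36) below. Of 11 tested mural markers 7 lay above and 4 below the wild-type means, limma called 0, 1 had an unadjusted p under 0.05 and the median was 0.09. Those of smallest p were Higd1b (0.23), Abcc9 (0.21) and Des (0.31) above 0 and Anpep (-0.29) below. These splits depended on the scaling, and not all of them alike. With median centring, which moves every gene by the same amount and left 12.3% of all genes above 0, the genes above 0 were 1 of 23 for related peptides, 4 of 33 for downstream signalling, 7 of 24 for hypoxia, 3 of 17 for endothelial and 3 of 11 for mural markers. After quantile normalization, with 39.1% of all genes above 0, they were 8, 17, 15, 6 and 5 in the same order of lists. With the array factor removed and 46.8% of all genes above 0, they were 10, 18, 13, 7 and 7.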

How the data were processed

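Total RNA of whole brains was labelled with biotin by a one-cycle procedure and hybridised to Affymetrix mouse arrays, per the labels' protocols. The deposited values are linear signal intensities of 45101 probe sets, 64 of them controls; how the authors summarised and scaled these intensity values is not given in the sources used here. Genes were named from the platform annotation. Of 45037 probe sets, 34945 carried 1 symbol, 932 several and 9160 none. Promoters came from RefSeq, assembly GRCm38.p6.

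Intensities were turned into log2(signal + 16). Probe sets whose mean exceeded the 40th percentile (signal 56.9) were kept, and the one of highest mean stood for each gene, which left 12920 genes. The 2-group test was two-sided limma 3.58.1 (lmFit, eBayes) in R 4.3.3, with p-values adjusted by Benjamini and Hochberg's method across every gene tested and called under 0.05. A second fit without the filter used all 45037 probe sets. Intervals printed for probe sets that do not stand for a gene come from it. Exact permutation tests used all 1716 splits, ignoring litter. The smallest p they can give is 0.00117. The design text calls the embryos biological replicates, and the number of arrays limits the precision.

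Named were every probe set of the listed genes, up to 4 tested genes of smallest p per list (for the related peptide, signalling, hypoxia, endothelial and mural lists) and the 3 most correlated genes per member. Other marker lists are given by counts and sums. The genes, lists and tests were chosen with earlier results of these data known. On simulated data with genes of this comparison changed (12920 genes), the test recovered 83.6% of genes changed 2-fold and 39.1% of those changed 1.5-fold. These rates describe the simulated data only and may overstate the power to call a changed gene here. Real arrays shared deviations from their group means, with r of 0.58 between the littermates knock-out 7 and wild-type 6. The adjusted threshold also depends on how many genes change, and only 3 genes were called here. Alternatives were the pseudocount, the filter, the scaling, the probe set rule, the litter as a block, the replicate number as a block, the Actb ratio, array weights, and leaving out each array or litter. Replicate numbers did not pair the samples: deviations of same-numbered knock-out and wild-type arrays correlated between -0.26 and 0.40. Plots were drawn with matplotlib 3.10.9.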

Additional observations from a re-analysis of the deposited data

Results flagged for a closer look

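In 7 of 42 groups of arrays, 1 embryo stood further from the others than a Dixon test at the 95% level allows. For independent, normally distributed values chance gives this in about 1 in 20 groups, but several probe sets share arrays. The share over all probe sets is not given here, so no excess among these genes can be read from the count. Low values were Calcrl 1425814_a_at in knock-out 7 (94.4, against 194 to 263 in the other knock-out brains) and Ramp2 in knock-out 7 (777) and in its littermate wild-type 6 (810.3). Also low were Ramp1 1447474_at in wild-type 2 (42.4, against 71.5 to 90.7 in the other wild-type brains) and Ece1 1434177_at in wild-type 2 (9.85), the array with the highest Actb ratio. Ednrb 1437347_at was low in wild-type 1 (1374, against 2718 to 3275 in the other wild-type brains). The only high value was Ednrb 1423594_a_at in wild-type 6 (676, against 156 to 259.7). Of the 7, 4 lie in litter 262.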

How the results depend on the processing

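The count of called genes was 0 of 8 under each of 31 alternatives, and that of called probe sets 0 of 21 under each of 28. Adm stayed higher in knock-out brains in all 30 alternatives that kept it (0.10 to 0.40), with an unadjusted limma p under 0.05 in 20. Leaving out knock-out 1 (the only embryo of litter 148), knock-out 5, wild-type 3, wild-type 6, litter 238 or litter 250 lifted that p above 0.05. The 60th percentile filter removed Adm and Edn3. Changes of most other genes lay near 0 and turned sign under some settings, where the cause was not tested. The number of arrays and the spread between embryos limit the precision. With the replicate number as a block, which does not pair the arrays, Adm had 0.33 and the sign turned for Ramp2 (0.088), Ramp1 1431413_at (-0.024), Edn1 1451924_a_at (0.016), Edn3 1438696_at (0.053) and Ednrb 1426314_at (-0.022). With litter as a block Adm had 0.32 and the sign turned for Ramp3 (-0.032), Ednrb (-0.0035), Edn3 1438696_at (0.025), Edn3 1441923_s_at (0.22) and Ece1 1441423_at (-0.0040). Neither block changed a call. Median centring turned Calcrl (-0.11), Ramp3 (-0.19), Edn3 (-0.15), Ednrb (-0.19), Ece1 (-0.072), Ace (-0.016), Gnaq (-0.059), Grk3 (-0.011), Prkacb (-0.058), Calcrl 1459536_at (-0.083), Ramp1 1431413_at (-0.18), Ednrb 1426314_at (-0.18) and Ece1 1441423_at (-0.065). Quantile normalization turned Calcrl (-0.074), Ramp3 (-0.084), Edn3 (-0.15), Ednrb (-0.024), Ramp1 1431413_at (-0.16) and Ednrb 1426314_at (-0.077). Removing the array factor turned Ramp3 (-0.051), Ednrb (-0.052), Ramp1 1431413_at (-0.030) and Ednrb 1426314_at (-0.033). The mean of the probe sets turned Edn3 (-0.023) and Ace (-0.042). A pseudocount of 1 turned Ramp1 1431413_at (-0.0058). A pseudocount of 64 turned Ramp3 (-0.0018). The Actb ratio as a covariate turned Ramp3 (-0.13), Ramp1 1431413_at (-0.072), Ednrb 1426314_at (-0.10) and Ece1 1434177_at (-0.0076). Array weights turned Calcrl (-0.0051), Ramp2 (0.039), Ramp3 (-0.0068), Ednrb (-0.071) and Edn3 1441923_s_at (0.16). Without both arrays of high Actb ratio the sign turned for Ramp3 (-0.18), Ramp1 1431413_at (-0.11), Edn3 1441923_s_at (0.14), Ece1 1434177_at (-0.080) and Ece1 1441423_at (-0.10). Without litter 148 it turned for Ramp3 (-0.0085), Ramp1 1431413_at (-0.015), Edn3 1441923_s_at (0.13) and Ece1 1441423_at (-0.034). Without litter 219 it turned for Calcrl (-0.11), Ramp2 (0.059), Ramp3 (-0.016), Ednrb (-0.16), Ednrb 1423594_a_at (-0.032), Ednrb 1426314_at (-0.30) and Ece1 1434177_at (-0.033). Without litter 238 it turned for Calcrl (-0.048), Ramp3 (-0.0090), Edn3 (-0.15), Ednrb (-0.12), Edn3 1438696_at (0.036), Edn3 1441923_s_at (0.12), Ednrb 1423594_a_at (-0.045) and Ednrb 1426314_at (-0.16). Without litter 250 it turned for Adm 1416077_at (-0.036), Calcrl 1418489_a_at (0.034) and Ramp1 1431413_at (-0.16). Leaving out 1 array at a time gave 0.21 to 0.36 for Adm, -0.17 to 0.14 for Ramp3, -0.092 to 0.13 for Ramp1 1431413_at, -0.18 to 0.13 for Edn3 1441923_s_at, -0.034 to 0.25 for Ece1 1441423_at, -0.15 to 0.26 for Ednrb 1426314_at, -0.18 to 0.097 for Ednrb, -0.20 to 0.062 for Edn3 1438696_at, -0.041 to 0.13 for Edn3, -0.17 to 0.088 for Ramp2, -0.43 to 0.016 for Edn1 1451924_a_at, -0.20 to 0.25 for Calcrl and -0.090 to 0.56 for Ece1 1434177_at.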

Other observations

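Among the remaining marker lists, the choroid plexus list had 7 tested genes, 1 above and 6 below its wild-type mean, 0 called by limma and 0 with an unadjusted p under 0.05, and a median log2 change of -0.41. Its summed signal ran from 9090 to 31908 in knock-out and from 23051 to 38481 in wild-type brains, the lowest being knock-out 4. On the deposited scale the tested astroglial markers had 10 means above and 5 below wild-type, and neuronal markers 7 and 5. Meningeal markers had 6 and 6, and microglial markers 5 and 3. Neural crest and melanocyte markers had 3 and 2, and red cell markers 2 and 2. In each of these lists 0 were called, with 1 unadjusted p under 0.05 in each of the microglial and red cell lists. Over all 12920 genes 65.5% had the higher mean in the knock-out, 0.0232% were called and 1.97% had an unadjusted p under 0.05. The median log2 change of all genes was 0.04. The 8 microglial markers summed to 2697 in knock-out 7 and 2684 in wild-type 6, both of litter 262, against 3306 to 4952 in the other 11 arrays. Astroglial markers, of the cells that carry Ednrb in brain, summed to 43841 to 53002 in knock-out and 44704 to 53673 in wild-type brains, and the groups overlapped.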
